A study of Bos taurus with 2 samples.

Results

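Chromosome 3 held 779 of the 14264 merged H3K4me3 regions of bovine longissimus dorsi (LD), the loin muscle of the carcass. A merged region joined all islands of the tender and tough groups that overlapped by at least 1 bp, an island being a run of enriched 200 bp windows called by SICER. The 779 regions rested on 725 of 12930 tender islands and 665 of 11535 tough islands. All samples came from purebred Aberdeen Angus steers of a closed herd, slaughtered at about 12 months of age, and the groups differed in the shear force of the cooked meat. The tender group combined 4 steers with a Warner-Bratzler shear force (resistance of cooked meat to a blade) of 6.77 ± 0.56 kg, and the tough group combined 5 steers at 19.93 ± 0.39 kg. Chromatin was pooled in equal aliquots before ChIP-Seq, so each group is represented by 1 library, variation among steers is not known, and differences between the libraries have no replicate check. The intervals given below cover counting error only, and neighbouring islands are not independent of each other.

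H3K4me3, trimethylation of lysine 4 on histone H3, is deposited at nucleosomes around the start sites of active and poised genes. A map of the mark therefore follows the promoters of a tissue, with narrow islands at most promoters and broad domains at some genes of high or cell type-specific activity. Chromosome 3 carries muscle genes such as CASQ1 and CASQ2, the calsequestrins that store calcium in the sarcoplasmic reticulum, AMPD1, the AMP deaminase of skeletal muscle, TPM3, a tropomyosin of slow fibres, and LMNA, which encodes the nuclear lamins A and C. The list of 28 muscle gene names was chosen for this chromosome, and all of them were placed on it by RefSeq's gene table of the ARS-UCD2.0 assembly. The island lists described here state no genome build and could not be matched to that assembly, so no gene was assigned to a region, and the mark was not checked at known muscle promoters. Positions are those of the lists with 1 added to each start and each end, so that they count from 1. No genome of their build was used here, and the regions are identified by position alone.

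The regions were more frequent on chromosome 3 than the mean over the other 28 autosomes. Up to the last island at 121.3 Mb there were 6.42 merged regions per Mb, against 5.51 per Mb over the other autosomes, a ratio of 1.17 (95% interval 1.09 to 1.25). Chromosome 3 thus held 5.60% of the autosomal regions (5.23 to 5.99, Wilson interval) in 4.84% of the autosomal length. It ranked 10 of 29 by regions per Mb, between 2.66 per Mb on chromosome 12 and 15.3 per Mb on chromosome 19. The regions covered 2254.8 kb, or 1.86% of the chromosome, which was rank 9. Counted per gene the order was different. Chromosome 3 has 1224 protein-coding genes in the ARS-UCD2.0 table, and its 63.6 regions per 100 genes were below the 68.9 of the other autosomes together and ranked 23 from the highest.

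**Figure D1:**
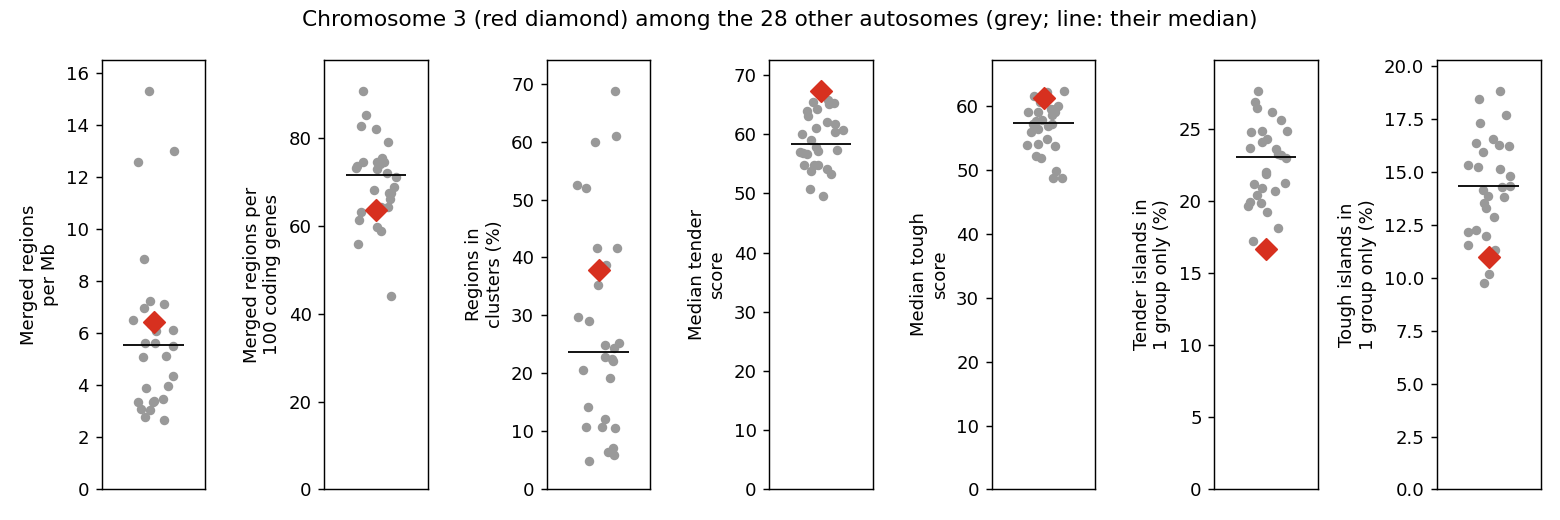
Each panel plots 1 measure for chromosome 3 (red diamond) and for each of the 28 other autosomes (grey points, spread sideways at random), with their median as a black line and the vertical axis starting at 0. Chromosome 3 lay inside the range of the others for regions per Mb (6.42), regions per 100 coding genes (63.6), regions in clusters (37.9%), the median tough score (61.2) and the share of tough islands in 1 group only (10.98%), above all of them in the median tender score (67.2), and below all of them in the share of tender islands called in 1 group only (16.7%).

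Along the chromosome the mark was uneven. In 121 full bins of 1 Mb the median was 4 regions and the highest count was 38, while 20 bins (16.5%) held none. The 8 bins with at least 20 regions contained 218 regions, 27.98% of the total, and the 25 bins with at least 10 contained 450, or 57.8%. The variance of the bin counts was 8.52 times their mean, rank 10 of 29, and this ratio had a median of 6.02 over the other autosomes. The unevenness of chromosome 3 was therefore within the range of other chromosomes.

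Most of the fullest bins lay close together in the first 21 Mb. The bin from 14 to 15 Mb held 38 regions with 35 tender and 36 tough islands, and islands covered 13.3% of its bases. The next bins held 34 regions (15 to 16 Mb, 32 tender and 30 tough islands) and 31 regions (16 to 17 Mb, 33 tender and 29 tough islands). Both libraries were high in all 3 bins. The bin from 110 to 111 Mb followed with 25 regions, 22 tender and 19 tough islands. The bins from 19 to 20 Mb and from 20 to 21 Mb had 24 regions each, with 22 and 23 tender and 22 and 24 tough islands. In blocks chosen after these counts had been seen, the stretch from 14 to 17 Mb held 103 regions, 13.2% of the total in 2.47% of the length, and the stretch from 19 to 22 Mb held 67, or 8.60%. The latter was also high in width and score, since 12 of its 67 regions (17.9%) were 5 kb or wider and its median score was 99.9 (tender) and 88.5 (tough). A long sparse stretch from 36 to 75 Mb, also chosen after the counts had been seen, held 84 regions, or 10.8% in 32.1% of the length, and 16 of these lay between 60 and 75 Mb. Regions in the sparse stretch were not weaker than elsewhere, since the median score between 36 and 75 Mb was 77.3 (tender) and 71.4 (tough), above the medians of the whole chromosome, 67.2 and 61.2. Farther along, the stretches from 80 to 90 Mb and from 90 to 100 Mb held 4.2 and 5.9 regions per Mb. Both were below the 6.42 of the whole chromosome. Between 100 and 110 Mb the regions were frequent again, with 121 regions or 12.1 per Mb.

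**Figure D2:**
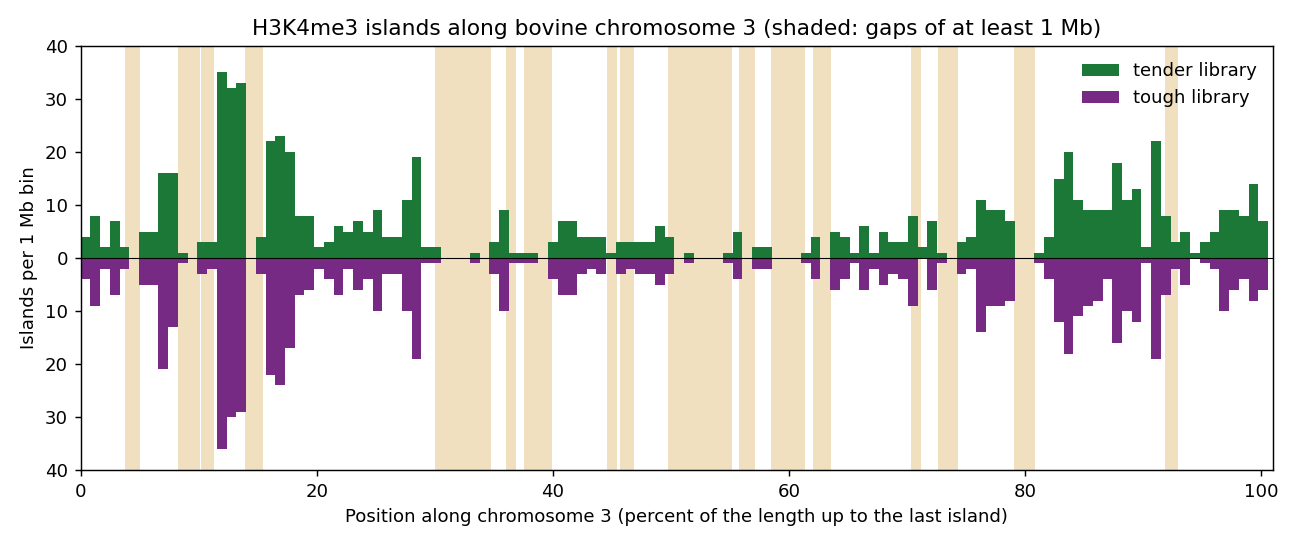
Islands per 1 Mb bin along chromosome 3, tender upward in green and tough downward in purple, against position as a percentage of the length up to the last island, with gaps of at least 1 Mb shaded. Both libraries peak in the same bins, at 35 tender and 36 tough islands in the fullest one, and the longest of the 20 shaded gaps (4.05, 3.59 and 3.56 Mb) lie in the sparse stretch from 36 to 75 Mb.

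The maps of both libraries were alike at this scale. Tender islands outnumbered tough islands in 44 bins, tough islands outnumbered tender islands in 16, and the counts were equal in 61, of which 41 held islands. The largest excess in a bin was 6 islands for tender and 5 for tough. Over the 121 bins the counts of the libraries were correlated, with rho = 0.97 by Spearman and r = 0.98 by Pearson, given as a description, since bins share the underlying sequence and the libraries share the mapping.

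Runs of neighbouring regions were common. Regions were linked into clusters when the gap between them was at most 50 kb, and runs of at least 5 regions were counted. There were 33 such clusters with 295 regions, 37.9% of the total, against 32.8% of the regions of the other autosomes. Chromosome 3 ranked 9 of 29 for this share, which ran from 4.85% on chromosome 6 to 68.6% on chromosome 25. The largest cluster, chr3:14278801-14948400, held 29 regions in 669.6 kb. The cluster chr3:15359801-15717000 held 27 regions in 357.2 kb and was denser, with 27.7% of its bases covered. Further along, chr3:21371001-21641000 held 18 regions in 270 kb, and chr3:19484201-19928200 held 17 in 444 kb. The last of the 5 largest, chr3:110013401-110317200, held 17 regions in 303.8 kb. There, 5 of 15 tender and 2 of 12 tough islands had no partner, against 4 of 28 and 3 of 26 in the largest cluster. Over all autosomes 21.7% of the tender and 14% of the tough islands had none. These small counts were not tested. The median scores of chr3:110013401-110317200, 61.2 (tender) and 53.9 (tough), were the lowest of the 5.

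Regions inside clusters were broader and scored higher than those outside. On chromosome 3, 12.5% of the clustered regions were at least 5 kb wide, compared with 4.55% of the regions outside clusters, and over the other autosomes the shares were 12.6% and 5.89%. The median tender score was 79.9 inside and 64.1 outside, and the median tough score was 68.8 inside and 60.7 outside. Over the other autosomes the same medians were 64.0 inside and 59.99 outside (tender) and 61.0 inside and 57.1 outside (tough). Regions of 1 group only made up 23.1% of the clustered regions (Wilson interval 18.6 to 28.2) and 26.0% of the others (22.3 to 30.1), and these intervals overlapped. Over the other autosomes the shares were 30.4% inside and 31.9% outside clusters.

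Between the clusters were long gaps. The 778 gaps between merged regions had a median of 44.3 kb, with quartiles of 14.7 and 133.5 kb, against a median of 47.8 kb over the other autosomes. In 85 cases (10.9%) neighbouring regions were less than 5 kb apart, compared with 11.3% elsewhere. Gaps of at least 1 Mb numbered 20, totalled 39.2 Mb and took up 32.3% of the chromosome, a smaller share than the 40.6% of the other autosomes together and rank 20 from the highest. The longest was chr3:62842401-66893800, with 4.05 Mb free of islands in both libraries. Next came chr3:36430401-40024400 with 3.59 Mb, chr3:70888001-74447800 with 3.56 Mb, chr3:60307601-62837800 with 2.53 Mb and chr3:10033001-12256200 with 2.22 Mb. The longest gap and that of 2.53 Mb are neighbours, parted by the region chr3:62837801-62842400 alone. Absence from the lists says only that no window run passed the threshold of the caller, and bases to which reads could not be uniquely mapped are not marked in the files. There were 12 regions more than 500 kb from the nearest other region. Of these, 11 were called in both groups as 1 island each, compared with 143 of 237 such regions (60.3%) over the other autosomes, a comparison that rests on few regions. The median scores of the 12 regions were 75.1 (tender) and 70.2 (tough).

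The strongest regions of chromosome 3 were marked in both groups. By the score summed over both libraries, the first was chr3:15639601-15654400, with a score of 507.9 (tender) and 428.3 (tough), each split over 2 islands. The SICER score sums, window by window, how unlikely the read number is under a Poisson model of the library's mean, as a negative natural log, so it grows with both width and reads. This region was also the widest, at 14800 bp, and it lies in the cluster from 15.4 to 15.7 Mb. Region chr3:9596801-9606600 scored 497.0 (tender) and 384.5 (tough) over 9800 bp, and chr3:19679001-19688600 scored 461.1 and 400.3. Both scored higher in the tender library. The region chr3:14705601-14715800 scored 353.0 (tender) and 394.2 (tough), and chr3:14371201-14379200 scored 381.1 and 314.5. The sixth, chr3:19712801-19720400, had the largest difference among the 8, with 355.3 (tender) and 230.3 (tough). The last 2 of the 8 were compact. Region chr3:30853201-30856000 scored 280.1 and 289.7 in only 2800 bp, or 21.5 and 22.3 per window, while the first region had 9.07 per window in the tender library. Region chr3:12256201-12260000 scored 272.6 and 290.9 and borders the gap of 2.22 Mb. Of these 8 regions, 5 had the higher tender score and 3 the higher tough score. Among all regions with exactly 1 island per group, the tender score was higher in 63.1% on chromosome 3 and in 63.6% on the other autosomes. Scores of libraries of different depth are not on one scale.

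Chromosome 3 did not hold the highest-scoring autosomal islands. Its highest island ranked 12 among the autosomal tender islands and 16 among the tough ones, and none was among the first 10 of either list. Among the first 100 islands, 5 tender and 12 tough ones were on chromosome 3, and among the first 30 there were 2 and 4. The chromosome held 725 of the 12607 autosomal tender islands and 665 of the 11277 autosomal tough islands. The tough count in the first 100 was thus above its share of islands, which was not tested. The 78 highest-scoring of the 779 regions held 28.1% of the summed score, close to the 28.97% that the same fraction held elsewhere. Besides those already named, the widest regions were chr3:105430001-105440800 with 10800 bp and chr3:14839801-14850200 with 10400 bp. The former scored 266.0 in the tender library, in 2 islands, and 271.0 in the tough library, in a single island, and the latter scored 202.3 and 170.7. At 5 kb or more there were 59 merged regions, 7.57% of the total, against 8.09% over the other autosomes.

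Tough islands were wider than tender islands. On chromosome 3 the tender islands had a median width of 2000 bp, with quartiles of 1400 and 2800 bp and a range from 400 to 9800 bp. The tough islands had a median of 2400 bp, with quartiles of 1600 and 3400 bp and a range from 400 to 10800 bp. The ranges overlapped almost fully, and the difference was most visible in broad islands, of which there were 21 tender (2.90%) and 44 tough (6.62%). Medians over the 28 other autosomes were the same, 2000 and 2400 bp, and the shares of broad islands there were 2.95% (tender) and 6.94% (tough).

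**Figure D3:**
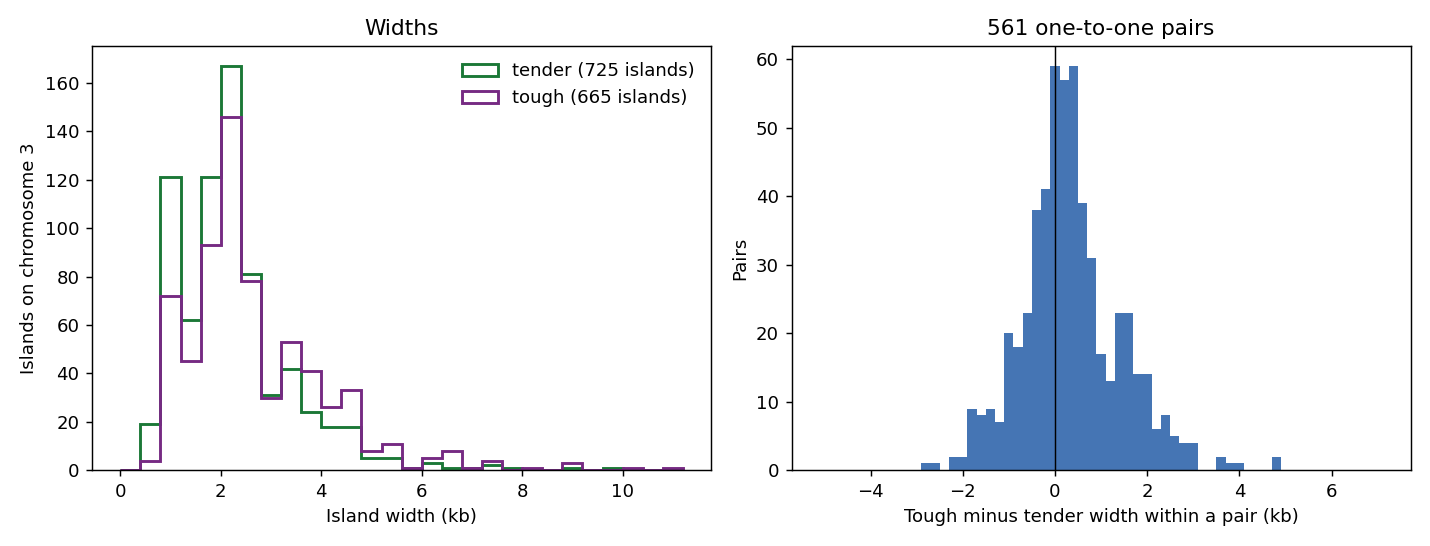
The left panel gives the number of chromosome 3 islands by width in kb for the tender (green, 725 islands) and the tough (purple, 665 islands) library, and the right panel gives the tough minus tender width in kb for the 561 one-to-one pairs, with a line at 0. The tough outline lies to the right of the tender one, with medians of 2400 and 2000 bp, and the pair differences centre at 200 bp with a longer tail toward tough.

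The difference held within pairs at the same position. There were 561 regions (72.0%) in which exactly 1 tender island met 1 tough island, compared with 66.2% over the other autosomes. The tough island was wider in 323 pairs (57.6%), the tender island in 179 (31.9%), and 59 had equal widths. The median difference, tough minus tender, was 200 bp (95% interval of the median 200 to 400) with quartiles of -200 and 800 bp. Both edges shifted, with the tough island reaching on average 159 bp farther at the left and 190 bp farther at the right end. In 141 pairs the tough island extended past the tender one at both ends, and in 51 pairs the reverse was found. Over the other autosomes the tough island was wider in 59.9% of pairs and the tender island in 30.2%. The median difference there was 400 bp (200 to 400). Of those 8691 pairs, the tough island extended past both ends in 2185 and the tender island in 765. Chromosome 3 ranked 24 from the highest by the share of pairs with a wider tough island. A tough island at least 2 times as wide as its partner occurred in 76 of 561 pairs (13.5%), and 13% of all autosomal pairs had one. The tender island was at least 2 times as wide in 18 pairs (3.21%), against 3.24% of all autosomal pairs. Both shares on chromosome 3 were near the background of all autosomes. Only 24 regions (3.08%) joined several islands of a group, and 17 of these had 1 tough island across several tender ones, 6 had the reverse and 1 had several of both. They had a median width of 6800 bp. Over the other autosomes 321 regions (2.44%) joined several islands of a group, with a median width of 5600 bp. Of these, 222 had 1 tough island across several tender ones and 81 had the reverse. The tough library was deeper, as given below, and the part of depth in the widths was not tested.

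Scores on chromosome 3 were high for an autosome. The tender islands had a median score of 67.2 (95% interval 63.4 to 72.2), with quartiles of 39.3 and 110.3 and a highest score of 497.0. This was the highest median of the 29 autosomes, and the others ran from 49.5 on chromosome 24 to 65.8 on chromosome 18. The tough islands had a median of 61.2 (57.2 to 68.1), with quartiles of 38.3 and 98.98 and a highest score of 400.3, and this median ranked 4, the others lying between 48.7 and 62.3. The next highest tender median, 65.8, lies inside the interval of chromosome 3. Among islands with at least 2 times the lowest score of their list, the medians were 93.9 and 88.0 and chromosome 3 ranked 6 and 7, so the high rank of its medians came with fewer islands near the threshold. Islands in the lowest quartile of scores, set over all autosomes, made up 20.4% of its tender and 22.6% of its tough islands, and those in the highest quartile made up 28.8% and 28.7%.

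Within pairs the tender score was higher in 354 of 561 (63.1%). The median log2 ratio of tender to tough score was 0.20 (95% interval of the median 0.13 to 0.27), with quartiles of -0.23 and 0.59. Over the other autosomes the median was 0.19 and the tender score was higher in 63.6%, both close to chromosome 3. Scores are relative to the mean of each library and are not on one scale across libraries of different depth. Across the 561 pairs the scores had a Spearman's rho of 0.75 and the widths a rho of 0.48, given as descriptions.

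**Figure D4:**
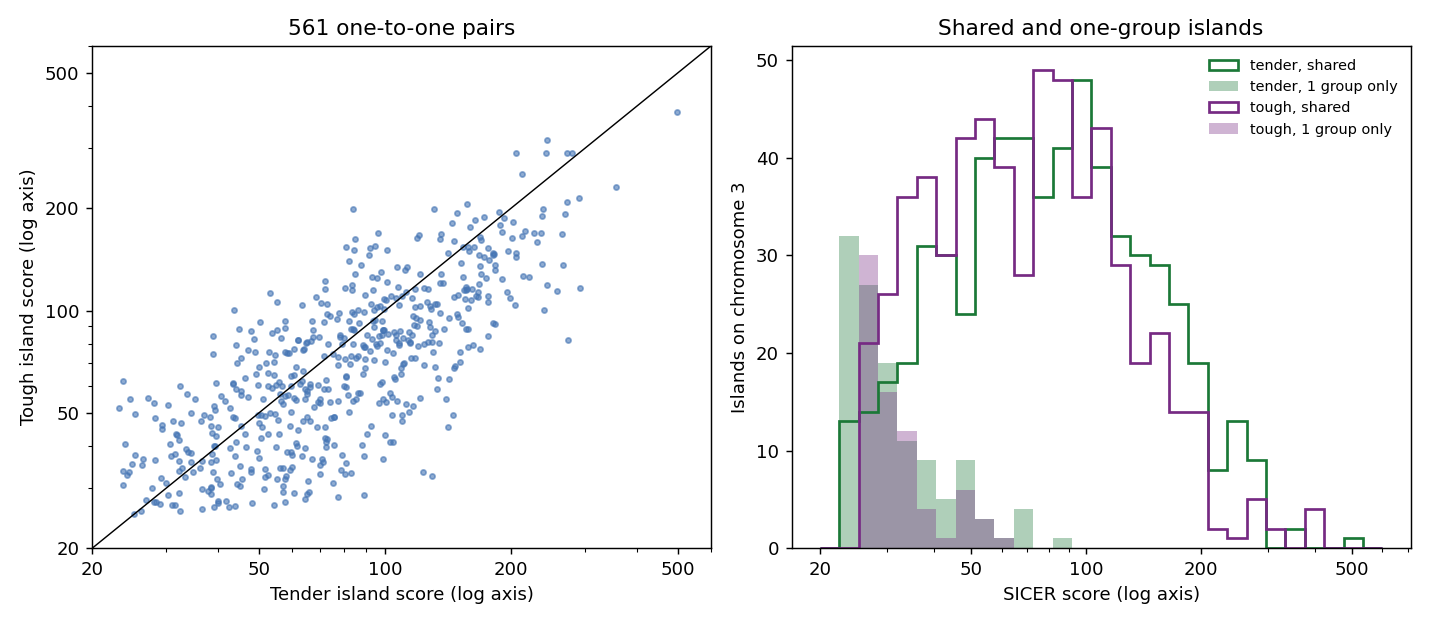
The left panel plots the tough against the tender SICER score of the 561 one-to-one pairs on log axes, with the line of equality, and the right panel gives the number of chromosome 3 islands by score on a log axis, outlined for shared islands and filled for islands of 1 group only. More points (63.1%) lie below the line of equality than above it, and the filled bars sit at the low end, with medians of 28.7 (tender) and 29.8 (tough) against 80.4 and 70.6 for shared islands.

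Islands called in 1 group only made up a smaller share on chromosome 3 than on most autosomes. Of the 725 tender islands, 121 overlapped no tough island, which is 16.7% (Wilson interval 14.2 to 19.6), against 21.7% of all autosomal tender islands. This was the lowest share of the 29 autosomes, the next being 17.3% on chromosome 18 and the highest 27.6% on chromosome 27. Of the 665 tough islands, 73 overlapped no tender island, or 10.98% (8.82 to 13.6), against 14% of all autosomal tough islands. This was rank 3 from the lowest, with the others between 9.74% on chromosome 7 and 18.8% on chromosome 27. The order of the groups rests on the definition. With an overlap of 50% of an island's own length the shares were 21.5% (tender) and 23.2% (tough), against 25.6% and 26.4% over all autosomes. With lists of equal length, the highest-scoring islands being kept, they were 10.8% and 13.4%, against 16% and 17.3%. Tender was above tough in the lists as deposited and below it under both of these settings, of which the second dropped low-scoring tender islands only. On chromosome 3 tender stayed above tough with a reciprocal overlap of 50% (33.5% and 27.5%). The same order held at 2 times the lowest score or more (3.25% and 1.47%), and with gaps of up to 400 bp counted as shared (16.6% and 10.7%). For the reciprocal overlap, the score cut and the 400 bp gaps no share over all autosomes is given. Those values describe the order of the groups on chromosome 3 alone.

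These islands were weak in both libraries. On chromosome 3 the tender islands without a tough partner had a median score of 28.7 and a median of 12 reads, compared with 80.4 and 26 reads for shared tender islands. The tough islands without a tender partner had medians of 29.8 and 13 reads, compared with 70.6 and 26 reads. The lowest score listed on chromosome 3 was 23.2 (tender) and 25.3 (tough). The share fell with the score. In the lowest quartile of scores 58.1% (50.1 to 65.8) of the tender and 38.7% (31.2 to 46.7) of the tough islands were of 1 group only, in the next 17.2% (12.4 to 23.5) and 8.75% (5.28 to 14.2), and in the third 2.58% and 0.61%. In the highest quartile there were 0 of 209 tender islands, which allows a share of up to 1.44% by the limit of 3 counts, and 0 of 191 tough islands, which allows up to 1.57%. On the other autosomes the shares in the lowest quartile were 60.4% (58.6 to 62.1) and 42.5% (40.6 to 44.4), in the next 23.7% (22.2 to 25.2) and 12.3% (11.1 to 13.6), in the third 3.18% and 1.39%, and in the highest 0.17% and 0.076%. The share of chromosome 3 was lower in every quartile of both groups, each time with overlapping intervals, and the difference was not tested.

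The 5 highest-scoring tender islands without a tough partner were named with their reads. The first was chr3:101055601-101058800, with a score of 84.5 from 32 reads. It was followed by chr3:110133001-110135800 (score 69.7, 26 reads) and chr3:35151801-35153200 (score 69.1, 25 reads). The remaining ones were chr3:28770201-28772800 (score 68.1, 26 reads) and chr3:87802601-87805400 (score 66.1, 25 reads). The tough list had no island at these positions, and the scores, between 66.1 and 84.5, lay around the median of 67.2 of all tender islands of the chromosome. The tough islands without a tender partner reached lower scores. The highest was chr3:8108801-8114200, with a score of 61.7 from 28 reads over 5400 bp, followed by chr3:85142601-85143400 (score 55.6, 20 reads) and chr3:34029801-34033600 (score 52.9, 23 reads). Then came chr3:19832401-19836600 (score 51.7, 24 reads) and chr3:49741601-49743000 (score 50.6, 19 reads). Several of the named islands bordered other regions. The tender island chr3:110133001-110135800 lay 0.6 kb from a tough island without a tender partner, chr3:110136401-110140200, with a score of 27.6, while the other named tender islands were at least 23.4 kb from the next region. The first 4 named tough islands lay 0.4 kb, 1.0 kb, 1.6 kb and 0.2 kb from the nearest region and the last lay 26 kb away. Within 1 kb of another region lay 12 of the 73 tough islands (16.4%) and 8 of the 121 tender islands (6.61%). No such share is given for the other autosomes. The median distance to the nearest region was 13.6 kb for tough-only and 23.4 kb for tender-only regions on chromosome 3. On the other autosomes the order was the same, with 18.8 kb and 23 kb.

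Tender islands without a partner were frequent at the far end of the chromosome. In stretches of 10 Mb their share was at most 18.8% (90 to 100 Mb) over the first 11 stretches, with 0 of 17 islands between 70 and 80 Mb, which allows up to 17.6%, then 30.1% of 73 islands from 110 to 120 Mb and 42.9% of 21 islands in the last 1.3 Mb. For tough islands the highest share was 22% of 50 islands, from 90 to 100 Mb, and the last stretches had 14.3% each. The last 10 Mb were set against the rest after these values had been seen. There, 24 of 66 tender islands (36.4%, interval 25.8 to 48.4) had no partner, compared with 97 of 659 (14.7%, 12.2 to 17.6) in the rest of the chromosome. Since the stretch was chosen with its high tender share known, these intervals are no test of a difference. For tough islands the shares were 15.2% (7.57 to 28.2) and 10.7% (8.47 to 13.3), with overlapping intervals. The median tender score was 42.4 in the last 10 Mb and 70.2 in the rest, and the part of the low scores in the share was not tested. The pattern was not limited to chromosome 3. Over the last 10 Mb of the other autosomes 28.1% of the tender islands had no partner, compared with 20.6% in their remaining length, and for tough islands the shares were 17.3% and 13.4%. For its end, chromosome 3 ranked 8 of 29 by the tender and 21 by the tough share.

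**Figure D5:**
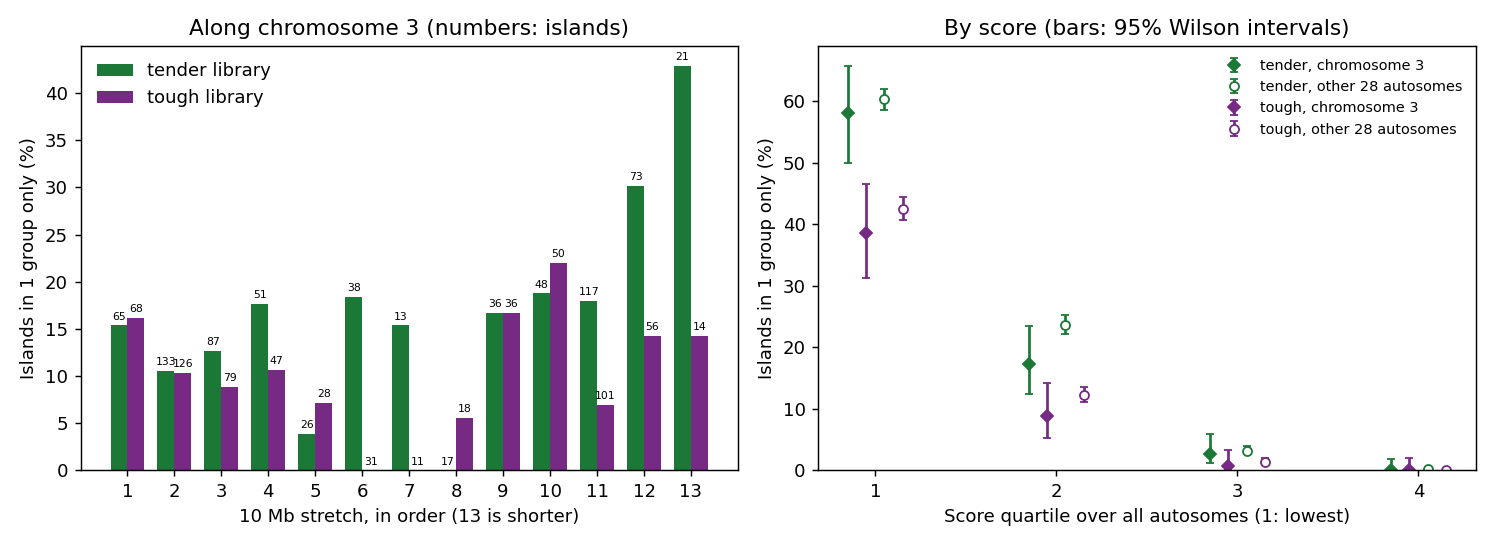
The left panel gives the percentage of islands called in 1 group only in each 10 Mb stretch of chromosome 3, tender in green and tough in purple, with the number of islands above each bar, and the right panel gives the same percentage by quartile of the score over all autosomes, with 95% Wilson intervals, for chromosome 3 (filled) and the other 28 autosomes (open). The tender share rises to 30.1% and 42.9% in the last 2 stretches, and the share falls from 58.1% of tender and 38.7% of tough islands in the lowest quartile to 0 in the highest.

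The number of reads behind an island was recovered from its score. Scores of islands a single window long fix the mean reads per window, which was 0.157 (tender) and 0.182 (tough), so that the tough library was 1.17 times as deep. Reads followed for 657 of 725 tender islands (90.6%) and 631 of 665 tough islands (94.9%) on chromosome 3, the others having mostly scores above the limit of 180 at which the recovery stopped. Counted tender islands held a median of 23 reads (quartiles 15 and 33, range 8 to 63) and counted tough islands 24 (16 and 35, range 10 to 69). At these numbers only large differences of a single island can be detected.

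Reads of both islands were counted in 498 of the 561 pairs, with 13885 tender and 13599 tough reads. The other 63 pairs had no read ratio. Islands without a count numbered 68 (tender) and 34 (tough) on chromosome 3, mostly those scoring above 180. Strong islands, more of them tender than tough, are therefore missing from the read share and the fold counts. The tender share was 50.5% (49.9 to 51.1), against 50.6% over all autosomal pairs, a value inside the interval of chromosome 3. By stretch of 10 Mb the tender share ran from 48.9% (46.3 to 51.5) between 80 and 90 Mb to 55.1% (50.7 to 59.4) in the last 1.3 Mb, where 12 pairs were counted. Reads were summed over each library's own island, and since the islands of a pair often differ in width, a read ratio compares called islands and is not a fold change over 1 fixed interval. Reads relative to the share over all autosomal pairs were at least 2 times as many in the tender library in 8 pairs (1.61%), against 1.98% of all autosomal pairs, and in the tough library in 11 pairs (2.21%), against 2.33%. Exact binomial tests with Benjamini-Hochberg adjustment over all 8327 autosomal pairs, which compare these 2 libraries and not the conditions, gave 0 of 498 pairs with an adjusted p under 0.05, against 0.12% of all autosomal pairs. The smallest adjusted p was 0.159, and the unadjusted p was under 0.05 in 48 pairs (9.64%), against 8.06% of all autosomal pairs. With the expected share taken from the depth, 46.2% tender, the 2-fold pairs were 33 tender (6.63%, against 5.87% of all autosomal pairs) and 1 tough (0.20%, against 0.781%), and 4 pairs (0.80%) passed the adjusted threshold, against 0.721%. The balance of tender and tough pairs thus rests on the scaling, and it covers the counted pairs only.

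The pairs with the largest ratios rested on few reads. The tender-high pair with the largest ratio was chr3:120329601-120331000, with 39 tender and 14 tough reads, a read ratio of 2.72 (interval 1.45 to 5.43, adjusted exact binomial p = 0.159). Its islands were 1400 bp (tender) and 1800 bp (tough) wide, and it lies in the last 1.3 Mb. Next were chr3:59026001-59027400 with 28 tender and 11 tough reads (adjusted exact p = 0.405), chr3:15519801-15522800 with 46 and 20 (adjusted exact p = 0.219) and chr3:80774801-80777000 with 48 and 21 (adjusted exact p = 0.208). Toward the tough library the largest ratio was at chr3:107245401-107248200, with 11 tender and 28 tough reads, a read ratio of 2.60 (1.26 to 5.80, adjusted exact binomial p = 0.323). Here the tender island was 2800 bp and the tough island 4200 bp wide, with 2200 bp in common. It was followed by chr3:15681401-15683000 with 13 tender reads in 1600 bp and 28 tough reads in 4600 bp (adjusted exact p = 0.472), chr3:92131601-92132600 with 16 and 34 (adjusted exact p = 0.414) and chr3:16002201-16003600 with 10 and 21 (adjusted exact p = 0.611), the last tied with chr3:117914001-117914600. Positions are those of the tender island. None of these pairs passed the test against the tender share over all autosomal pairs. With the expected share taken from the depth, 4 pairs of chromosome 3 passed, and which pairs these were is not given. A tender-high and a tough-high pair, chr3:15519801-15522800 and chr3:15681401-15683000, lay in the same cluster.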

How the data were processed

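Chromatin of the LD was digested with MNase, precipitated with an antibody against H3K4me3 and sequenced. By the methods, the authors aligned reads with Maq, allowing a single mismatch, discarded duplicates and multiply mapped reads, and called islands with SICER (version 1.1 per the submitters' processing notes) in 200 bp windows with gaps of 400 bp. No control library is named. For each library the authors deposited islands with a SICER score, not normalized for depth. The files give no read totals. The methods name bosTau4, but the lists state no build. The authors deposited a second list per library on other coordinates. By their numbers of islands, the second lists and not those described here are the ones the study tabulates, so the positions given here should not be read as bosTau4. The second lists served as an alternative chosen after seeing the data.

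Islands of both groups on the 29 autosomes were merged at an overlap of 1 bp, and chromosome length was taken as the end of the last island. Ratios and shares have 95% intervals (Wilson for shares; a share of 0 has the limit that 3 counts of the total give). Reads were recovered from scores up to 180 within a tolerance of 2e-08. Pairs were tested by an exact binomial test, two-sided, against the tender share over all autosomal pairs, with p-values adjusted by Benjamini-Hochberg and called under 0.05. Regions named follow a rule: the 8 highest summed scores, the 5 widest, the 5 highest-scoring islands of 1 group only per group, the 4 largest read ratios per direction among pairs with at least 20 reads, and the 5 fullest bins, largest clusters and longest gaps. The region set, gene names and tests were chosen with earlier results of these data known. Scripts used Python 3.11.15, numpy 2.4.6, pandas 2.3.3, scipy 1.17.1 and matplotlib 3.10.9, and were tested on simulated data. The simulated scores checked stopped below the limit of 180, and the simulated changed pairs differed by more than the 2-fold call. Alternatives covered score and overlap thresholds, each library alone, equal numbers of islands, bin, link and gap sizes, folds and the expected read share.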

Additional observations from a re-analysis of the deposited data

Results flagged for a closer look

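A second pair of lists was deposited for the same libraries and was not used in the comparisons above. These lists hold islands on chromosome 3 as well, 716 tender and 657 tough ones, from 881001 to 127919400, where the lists described above end at 121317000. On chromosome X their last island ends at 87.9 Mb, against 148.8 Mb, so the 2 pairs of lists are on different coordinates, and no position was converted between them.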

How the results depend on the processing

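With 1 library per group no library could be left out, and no paired analysis was possible because each group has a single replicate. Of 78 alternatives to 15 results, 47 stayed within the limits set for a change, and 31 moved the value. A value within these limits could still shift, as the gaps below show. Islands with at least 2 times the lowest score gave a density ratio of 1.30, shares of 1 group only of 3.25% (tender) and 1.47% (tough) and a median tough width of 2600 bp. An overlap of 50% of the own length gave 21.5% and 23.2%, and equal numbers of islands gave 10.8% and 13.4%, so under both settings the tough share was the higher one. A reciprocal overlap gave 33.5% and 27.5%. Mean widths were 2231 and 2686 bp. Pairs past the fold numbered 55 and 60 (tender and tough) at a fold of 1.5, 0 and 0 at a fold of 3, and 4 and 7 with reciprocal overlap. With the expected share taken from the depth (46.2% tender) they were 33 and 1. At that setting 4 pairs passed the adjusted threshold, against 60 over all autosomes, so the direction of read differences rests on the scaling. No 1-group shares or pair counts over all autosomes are given for the score cut, reciprocal overlap, 400 bp gaps and other folds. Those values describe chromosome 3 alone and cannot be set against a background. Links of 25 kb gave 19 clusters with 17.3% of the regions, links of 100 kb 57.9%, and a minimum of 10 regions 6 clusters with 15.5%. The share in clusters was 32.9% with tough islands alone and 33.3% in the second lists. Gaps of at least 0.5 Mb numbered 54 and took up 52.6% of the chromosome. Gaps of at least 1 Mb, 20 with 32.3% as reported, were 26 with 39.5% for tough islands alone. At 2 times the lowest score or more they were 28 with 44.6%. Both settings counted as within the limits, and their values for the other autosomes are not given. The variance to mean ratio was 16.98 in bins of 5 Mb and 5.61 in bins of 0.5 Mb. The upper quartile of reads per counted island was 33 (tender) and 35 (tough), which limits what a single island can show.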

Other observations

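In the second lists chromosome 3 had 772 merged regions, 557 of them one-to-one pairs, and 6.04 regions per Mb, again rank 10 of 29. Median widths were 2000 bp (tender) and 2400 bp (tough), and median scores were 67.4 and 63.3, rank 3 and rank 1. Islands of 1 group only were 119 tender (16.6%) and 75 tough (11.42%), the lowest shares of the 29 autosomes in both groups, where the others ran from 17.5% to 27.98% and from 12.2% to 21.95%. Both pairs of lists come from the same 2 libraries, so this is not independent evidence. The fullest 1 Mb bin held 34 regions, 17 of 127 bins were empty, 23 gaps were at least 1 Mb long, and the longest was 3.55 Mb. The highest summed score was at chr3:16967401-16982400 of those lists, 15000 bp wide, scoring 528.3 (tender) and 439.6 (tough).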
